A study of Homo sapiens with 6 samples.

Results

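The SR proteins and the heterogeneous nuclear ribonucleoproteins (hnRNPs) were followed in U87 glioblastoma cells with and without knockdown of PRMT6, an enzyme that adds asymmetric dimethyl groups to arginines of histones and other proteins. The members were set by a rule on gene symbols, chosen with earlier results of these data known. The rule took every gene named SRSF with a number (12 genes) and 20 HNRNP genes. It also took the SR-like pair TRA2A and TRA2B, and the polypyrimidine tract binding pair PTBP1 and PTBP2. This gave 36 of the 60612 genes in the deposited table, and 35 of them passed the filter on low counts. U87 is an established human glioblastoma line. NC cells carried a lentiviral scramble shRNA and shPRMT6 cells a lentiviral shRNA against PRMT6, and each group had 3 libraries of total RNA. Both groups were grown in DMEM with serum, and the study's methods describe stable cells selected with puromycin, so that each group is a transduced population of 1 line. The labels give no shRNA sequence and do not say whether the knockdown libraries carried 1 shRNA or several, and an effect of an shRNA other than on PRMT6 cannot be told apart from the knockdown.

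SR proteins hold RNA recognition motifs and a tail rich in arginine and serine, and many of them bind exonic enhancers and help the spliceosome to choose nearby splice sites. Members of the hnRNP class coat nascent transcripts, and many of them act on splice sites in the opposite sense, by binding silencers in exons and introns. Many genes of both classes are known to tune their own level through exons or introns that send the transcript to nonsense-mediated decay (NMD). Arginines in RGG motifs of several hnRNPs are known substrates of arginine methyltransferases. RNA levels say nothing of that modification.

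Total counts ran from 56388161 to 75887696 per library. PRMT6 was at 9.34, 7.97 and 7.19 CPM (counts scaled to a common library size) in the NC libraries and at 3.57, 4.58 and 5.24 CPM in the shPRMT6 libraries. The groups did not overlap, with a log2 fold change of -0.87 (SE 0.187, edgeR adjusted p = 0.0225), and the call was lost without NC replicate 1 or shPRMT6 replicate 1 or 2 (highest adjusted p = 0.0713). The mesenchymal marker VIM was high (1159 to 1357 FPKM, which scales counts for library size and gene length). The glial markers GFAP and SOX2 stayed at or below 0.0648 and 0.136 FPKM, and S100B was listed at the value that stands for 0 in these files. Of 8 markers of other cell types, CD68 (58.0 to 99.6 FPKM in NC and 56.4 to 123.6 in shPRMT6) and SNAP25 (4.63 to 5.07 and 4.42 to 5.15 FPKM) were above 1 FPKM, while PTPRC, KRT5 and RBFOX3 were near or at 0.

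Promoter sequence is shown for SRSF10, SRSF3 and HNRNPH3, the 3 members with the smallest p-values, all called lower in the test below. It is also shown for HNRNPH2, the single member called higher. The choice of these genes and of the motifs was made after the members' values were seen. Each sequence is the stretch of up to 250 bases before the RefSeq transcription start (GRCh38.p14), without bases that GENCODE 29 places in an exon of a coding or NMD transcript, written 5′ to 3′ on the gene's strand. Capitals mark the motifs searched on both strands. The TATA box was searched as TATAAA and the CCAAT box by the letters of its name. The GC box was searched as GGGCGG, the site of ETS factors as CCGGAAG and the core of the cyclic AMP response element (CRE) as TGACGT. The E-box was searched as CACGTG, and sites of E2F, a family known for its part in the cell cycle, in the forms TTTGGCGC and TTTCCCGC. The SRSF10 stretch lies at chr1:23980357-23980577 (minus strand), that of SRSF3 at chr6:36594112-36594352 (plus), that of the most upstream of 3 HNRNPH3 starts at chr10:68331443-68331692 (plus) and that of HNRNPH2 at chrX:101408013-101408221 (plus). The SRSF10 and HNRNPH3 stretches also lie within an exon of a non-coding transcript of GENCODE 29.
SRSF10: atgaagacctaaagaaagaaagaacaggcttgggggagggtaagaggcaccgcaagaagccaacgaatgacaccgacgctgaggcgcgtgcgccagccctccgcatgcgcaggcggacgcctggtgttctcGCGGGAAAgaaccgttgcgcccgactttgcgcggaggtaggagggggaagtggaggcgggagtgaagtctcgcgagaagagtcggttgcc
SRSF3: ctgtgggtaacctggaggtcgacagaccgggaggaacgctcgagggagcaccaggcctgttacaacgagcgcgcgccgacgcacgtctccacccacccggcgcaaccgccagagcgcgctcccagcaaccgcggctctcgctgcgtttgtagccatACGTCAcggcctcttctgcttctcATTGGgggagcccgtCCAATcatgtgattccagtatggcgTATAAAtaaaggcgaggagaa
HNRNPH3: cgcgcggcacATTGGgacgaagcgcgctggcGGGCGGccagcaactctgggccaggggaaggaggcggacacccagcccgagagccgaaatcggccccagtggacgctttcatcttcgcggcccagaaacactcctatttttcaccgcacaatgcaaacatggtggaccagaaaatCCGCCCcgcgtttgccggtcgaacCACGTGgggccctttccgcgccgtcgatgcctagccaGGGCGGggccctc
HNRNPH2: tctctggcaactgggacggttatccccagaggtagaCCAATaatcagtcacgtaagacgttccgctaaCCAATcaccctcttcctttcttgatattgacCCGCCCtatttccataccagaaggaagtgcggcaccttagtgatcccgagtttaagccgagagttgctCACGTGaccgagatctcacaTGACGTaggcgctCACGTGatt

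No motif stood in all 4 stretches. SRSF3 held a TATA box, a pair of CCAAT boxes and a CRE core, HNRNPH3 held a CCAAT box, GC boxes and an E-box, and SRSF10 held only the second E2F form. HNRNPH2 held CCAAT boxes, E-boxes, a CRE core and a GC box, sharing motifs with SRSF3 and HNRNPH3 but none with SRSF10. Across members, 33 had a RefSeq window (not HNRNPA1, SRSF2 and TRA2A), with 1.45 windows per member against 1.29 per gene over all 27305 genes, and the median GC content was 65.4% against 58%. A CCAAT box stood in 19 of the 33 members (37% of all genes), a GC box in 23 (46.2%), a CRE core in 7 (8.62%), a TATA box in 6 (13%), an E-box in 6 (7.73%) and an ETS site in 5 (10.2%). The E2F form TTTCCCGC stood in 5 (HNRNPLL, HNRNPUL1, PTBP1, SRSF10 and TRA2B, 1.7% of all genes), and TTTGGCGC in none of them (0.681%). Of these 5 genes, only SRSF10 and HNRNPUL1 passed the test below.

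The question put to these libraries was whether RNA of the splicing factors differed between shPRMT6 and NC cells. Of the 35 members tested, 15 were lower in shPRMT6 and 1 was higher at an adjusted p under 0.05 (edgeR quasi-likelihood test, Benjamini-Hochberg over all genes tested). Of all 18106 genes tested, 9.06% were lower and 9.51% were higher. Because most members are abundant, the same shares were taken over the 5731 genes whose average log2 CPM reached 5, where 15.2% were lower and 15.2% were higher. There, 33 members were counted, with the same 15 lower and 1 higher. The median log2 fold change was -0.24 over the members and -0.01 over all genes tested. A negative value was found in 31 of the 35 members, against 51.1% of all genes tested. The count of lower members was 9, 7 and 9 without shPRMT6 replicates 1, 2 and 3, when the share of all genes called lower was 4.89%, 4.52% and 4.90%. It was 12, 16 and 12 without NC replicates 1, 2 and 3, when that share was 6.59%, 8.10% and 4.91%. HNRNPH2 alone made up the higher count, which was 0 without any one shPRMT6 library or without NC replicate 3, and 2 without NC replicate 2. The share of all genes called higher was 5.06%, 4.73% and 4.99% without shPRMT6 replicates 1, 2 and 3. It was 5.35% without NC replicate 3 and 8.84% without NC replicate 2.

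**Figure D1:**
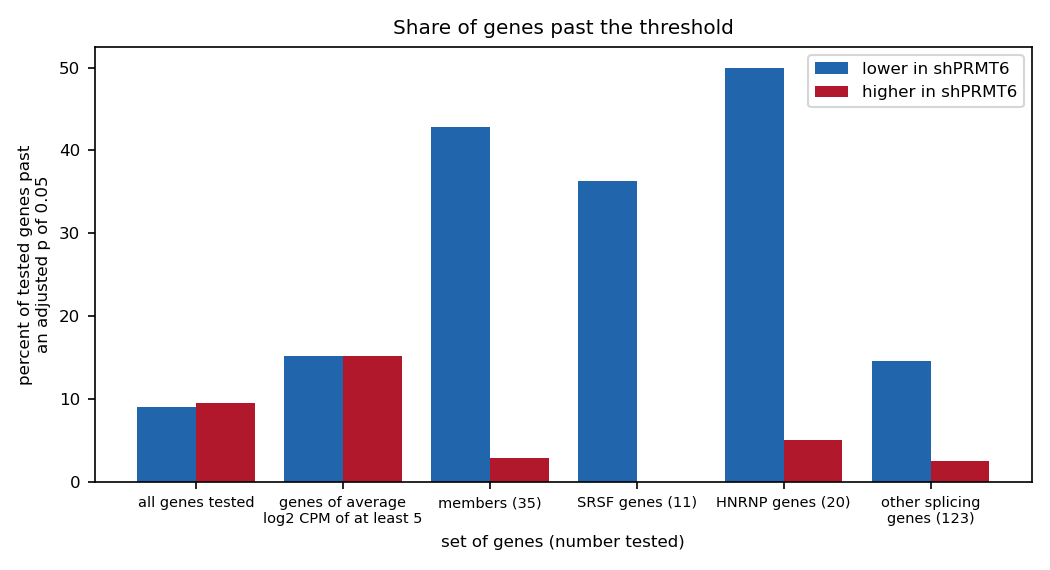
Percent of tested genes past an adjusted p of 0.05 (y axis) that were lower (blue) or higher (red) in shPRMT6, for all genes, abundant genes, the 35 tested members, the SRSF and HNRNP genes among them, and 123 other splicing genes. The blue bar of the members (42.9%) stands above those of all genes (9.06%) and of abundant genes (15.2%), while their red bar (2.86%) stands below both.

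All shPRMT6 libraries lay below all NC libraries in 22 members, an arrangement that 19.9% of all genes showed, and above them in 2 members, HNRNPH2 and HNRNPC (20.3% of all genes). Values of the groups overlapped in the other 11. By the threshold in the study's methods, an absolute log2 fold change above 1 with an unadjusted p under 0.05, 1 member passed, PTBP2, against 5.92% of all genes. Changes of the members were thus small in size: the 15 lower members kept 61.4% to 86.4% of their NC level. In bulk libraries, a lower level in each cell and fewer cells with the RNA cannot be told apart, and CPM is a share of the library, not an amount per cell. Replicate libraries are described as independent, without a record of separate transductions, so that p-values cover the spread between these libraries.

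**Figure D2:**
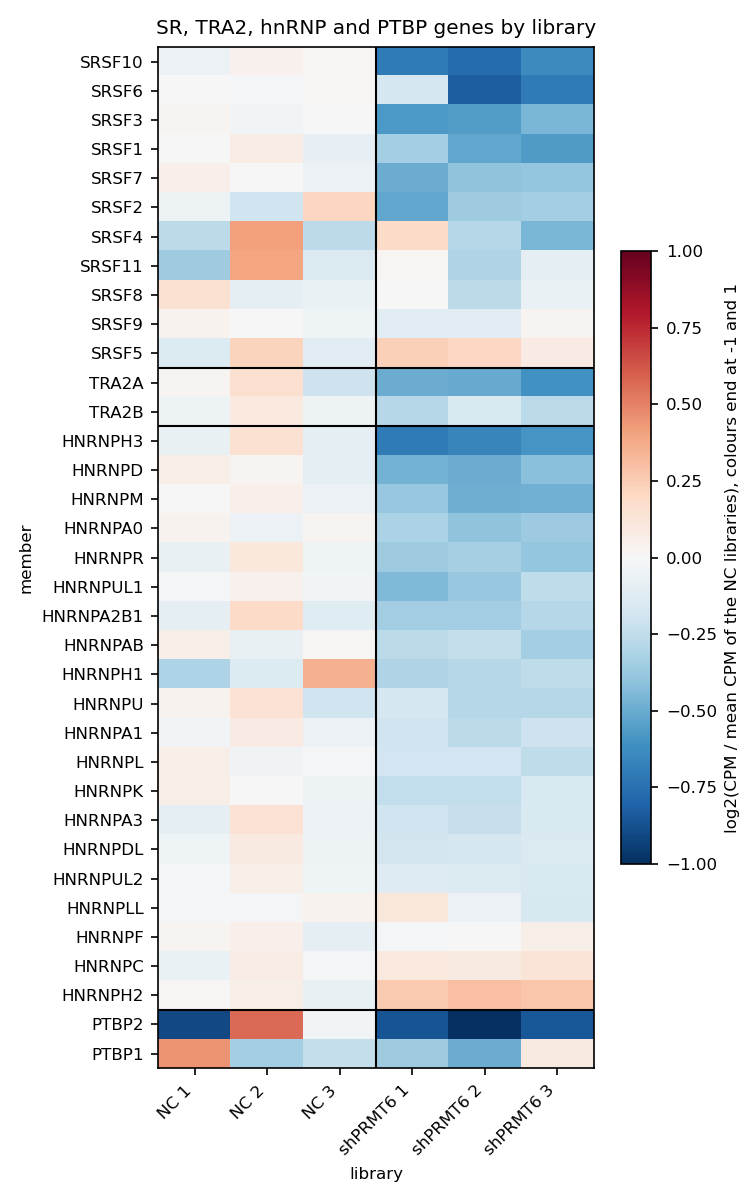
Log2 ratio of each member's CPM to the mean of the NC libraries (colour) in the 6 libraries (columns), by family from top to bottom (SRSF, TRA2, HNRNP, PTBP) and, within a family, from the lowest fold change. Most rows turn blue right of the line between NC and shPRMT6, and the rows of HNRNPH2, HNRNPC and SRSF5 turn red.

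Among the SR proteins, 4 of 11 tested genes were lower and none was higher, with a median log2 fold change of -0.40. SRSF10, which can repress splicing in its dephosphorylated form, stood at 84.1, 90.0 and 88.0 CPM in NC and 53.6, 51.2 and 56.2 CPM in shPRMT6. It had the smallest p-value of all members and kept 61.4% of its NC level (log2 fold change -0.70, SE 0.0655, adjusted p = 0.00153). SRSF3, the smallest SR protein, which also takes part in mRNA export, stood at 173.6, 167.5 and 170.4 CPM in NC and 114.5, 115.9 and 124.2 CPM in shPRMT6 (log2 fold change -0.53, SE 0.0573, adjusted p = 0.00227). Its NC libraries lay within a few CPM of each other, and every shPRMT6 library was below them. SRSF7, a close relative of SRSF3 that shares its role in export, stood at 92.1, 89.3 and 85.6 CPM in NC and 63.1, 67.3 and 68.2 CPM in shPRMT6 (log2 fold change -0.43, SE 0.0636, adjusted p = 0.00649). SRSF3 and SRSF7 thus fell side by side, to 69.3% and 74.4% of NC.

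SRSF1, the founding SR protein, which can act as an oncogene, was at 133.2, 139.6 and 125.1 CPM in NC and 104.7, 92.5 and 89.5 CPM in shPRMT6 (log2 fold change -0.47, SE 0.0817, adjusted p = 0.0106). The groups did not overlap, but the call was lost without shPRMT6 replicate 2 (adjusted p = 0.0516). Of the SRSF1 exon sequence, 51.8% is shared with AC015813.2, on the same strand, or AC015813.5, on the other, so its count is uncertain. SRSF6 had the second lowest fold change of the SR genes without passing the test. Its NC libraries were at 174.7, 171.0 and 175.6 CPM, and the shPRMT6 libraries at 153.9, 98.4 and 106.6 CPM (log2 fold change -0.54, 95% interval -0.93 to -0.14, adjusted p = 0.0685). Every shPRMT6 library was below every NC library, and replicate 1 stood apart from the other two: without it, the value was -0.76 (adjusted p = 0.00772). SRSF2, a defining protein of nuclear speckles, was at 71.3, 64.4 and 85.7 CPM in NC and 51.5, 57.8 and 58.2 CPM in shPRMT6 (log2 fold change -0.40, 95% interval -0.68 to -0.12, adjusted p = 0.0595). Its groups did not overlap, and it passed without NC replicate 2 (adjusted p = 0.0332). MFSD11 on the opposite strand and MIR636 share 26% of its exon sequence.

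The remaining SR genes showed no such separation. SRSF5 was at 100.7, 129.5 and 102.3 CPM in NC and 130.4, 127.9 and 117.3 CPM in shPRMT6 (log2 fold change 0.18, 95% interval -0.09 to 0.44), and without NC replicate 2 it passed as higher (log2 fold change 0.30, adjusted p = 0.0387). SRSF4 and SRSF11 were high in the same library, at 149.1 and 172.9 CPM in NC replicate 2 against 93.4 to 93.6 and 103.3 to 119.4 CPM in the other NC libraries. Without that library their fold changes turned from -0.16 and -0.12 to 0.10 and 0.12. In shPRMT6, SRSF4 was at 127.9, 91.8 and 81.5 CPM and SRSF11 at 133.7, 107.0 and 123.3 CPM. Without shPRMT6 replicate 1, the fold change of SRSF4 was -0.37 and that of SRSF11 -0.20. SRSF9 (153.2 ± 4.26 CPM in NC and 146.6 ± 8.01 in shPRMT6, SD, n = 3) and SRSF8 (12.8 ± 1.21 and 11.8 ± 1.12 CPM) had intervals of -0.21 to 0.08 and -0.40 to 0.18. SRSF9 shares 42.7% of its exon sequence with GATC on the opposite strand. SRSF12, a relative of SRSF10 with a narrow tissue range, had 0, 7 and 7 counts in NC and 0 in every shPRMT6 library, too few to test.

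TRA2A and TRA2B bind GAA-rich exonic enhancers. TRA2A was at 49.1, 53.7 and 41.7 CPM in NC and 34.2, 34.1 and 31.7 CPM in shPRMT6 (log2 fold change -0.53, SE 0.107, adjusted p = 0.0181). The call was lost without any one of the shPRMT6 libraries (highest adjusted p = 0.0692). TRA2B was at 122.2, 135.4 and 122.3 CPM in NC and 103.9, 114.1 and 104.8 CPM in shPRMT6 (log2 fold change -0.23, 95% interval -0.40 to -0.06, adjusted p = 0.0662), with no overlap of the groups. Both paralogs had a negative fold change, and TRA2A alone passed the test.

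**Figure D3:**
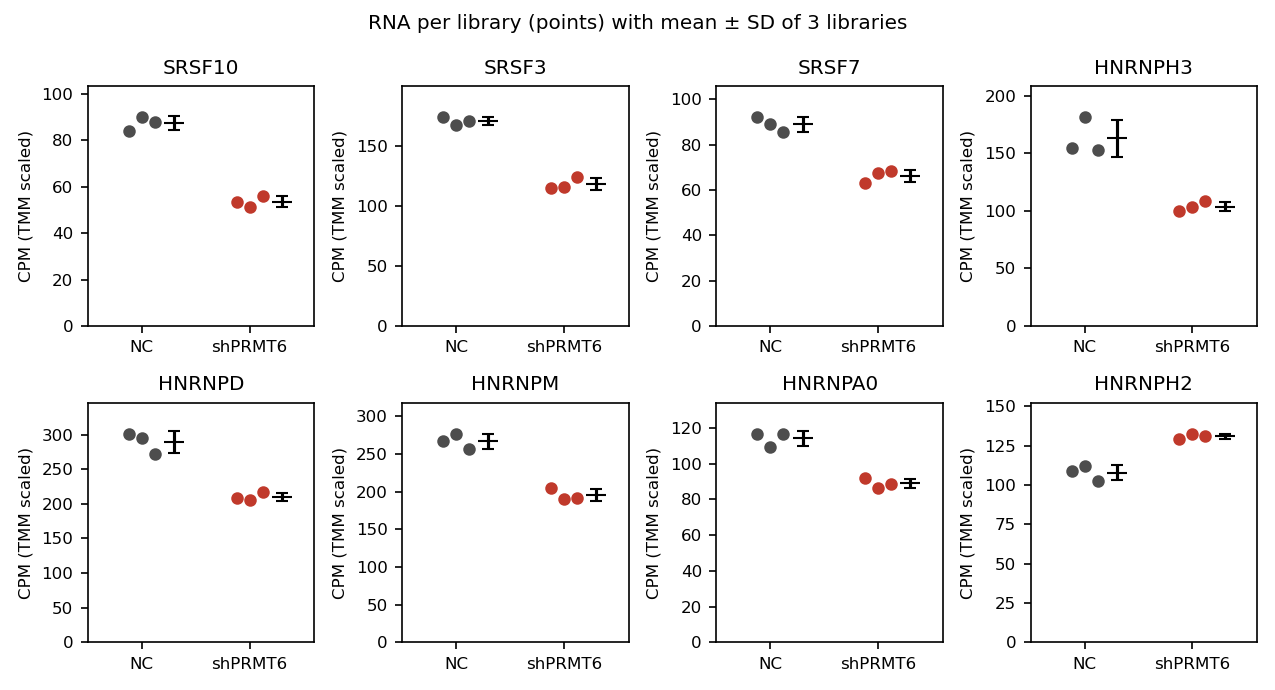
CPM (y axis, from 0) of the 7 lower members that passed the test without any one library, and of HNRNPH2, in NC (grey points) and shPRMT6 (red points), with the mean ± SD of 3 libraries beside them. In the first 7 panels every red point lies below every grey one, and for HNRNPH2 every red point lies higher.

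Of the 20 HNRNP genes, 10 were lower and 1 was higher, with a median log2 fold change of -0.23. HNRNPH3, of the H and F family whose members bind runs of G, was at 154.7, 181.1 and 152.4 CPM in NC and 99.8, 103.0 and 108.1 CPM in shPRMT6 (log2 fold change -0.65, SE 0.0837, adjusted p = 0.00402). This was the lowest fold change of the HNRNP genes, at 63.7% of NC. HNRNPH2 of the same family went the other way, at 108.8, 112.2 and 102.6 CPM in NC and 129.5, 132.6 and 130.9 CPM in shPRMT6 (log2 fold change 0.28, SE 0.058, adjusted p = 0.0202). Its shPRMT6 libraries lay within a few CPM of each other and above all NC libraries. The call was lost without NC replicate 3 or any one shPRMT6 library (highest adjusted p = 0.0831), and 13.5% of its exon sequence is shared with the read-through gene RPL36A-HNRNPH2. HNRNPH1 was at 111.0, 124.7 and 176.0 CPM in NC and 111.7, 112.6 and 114.8 CPM in shPRMT6 (log2 fold change -0.28, 95% interval -0.67 to 0.12). NC replicate 3 stood apart, and without it the value was -0.06. HNRNPF was level at 276.7 ± 14.3 and 279.5 ± 7.25 CPM (log2 fold change 0.01, 95% interval -0.13 to 0.16). Members of 1 family thus had values from -0.65 to 0.28.

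HNRNPD (AUF1), HNRNPDL and HNRNPAB are related proteins, and HNRNPD binds AU-rich elements that mark mRNAs for decay. HNRNPD was at 301.1, 295.3 and 271.4 CPM in NC and 209.0, 205.4 and 216.8 CPM in shPRMT6 (log2 fold change -0.46, SE 0.0607, adjusted p = 0.0045). HNRNPAB was at 166.6, 151.7 and 161.1 CPM in NC and 132.4, 135.8 and 126.3 CPM in shPRMT6 (log2 fold change -0.28, SE 0.0618, adjusted p = 0.0242). Neither gene's groups overlapped, and HNRNPAB passed in only 1 of the 6 fits that left out a library, the one without NC replicate 2. HNRNPDL was at 220.7, 242.3 and 219.5 CPM in NC and 200.7, 202.9 and 205.6 CPM in shPRMT6 (log2 fold change -0.16, 95% interval -0.31 to -0.02, adjusted p = 0.107).

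HNRNPA0, which also binds AU-rich elements, was at 116.7, 109.3 and 116.4 CPM in NC and 91.7, 86.4 and 88.6 CPM in shPRMT6 (log2 fold change -0.36, SE 0.059, adjusted p = 0.00895). Every shPRMT6 library was lower than every NC library, and the call held without each library in turn. HNRNPA1, the best known hnRNP that acts through silencers, had the highest FPKM of all members. It stood at 907.7, 975.2 and 887.1 CPM in NC and 805.0, 765.1 and 800.3 CPM in shPRMT6 (log2 fold change -0.22, SE 0.0551, adjusted p = 0.0349). Among the fits that left out a library, it passed only without NC replicate 2, and 20.2% of its exon sequence is shared with pseudogenes. HNRNPA2B1, a close relative, was at 1005, 1228 and 988.3 CPM in NC and 844.1, 845.2 and 883.1 CPM in shPRMT6 (log2 fold change -0.32, 95% interval -0.54 to -0.11, adjusted p = 0.0521). It passed without NC replicate 2 (log2 fold change -0.22, adjusted p = 0.0255), although its fold change was then smaller. HNRNPA3 was at 516.4, 611.5 and 531.9 CPM in NC and 481.0, 470.5 and 496.8 CPM in shPRMT6 (log2 fold change -0.20, 95% interval -0.38 to -0.02, adjusted p = 0.123), and shares 14.3% of its exon sequence, mostly with pseudogenes.

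HNRNPM, which binds GU-rich RNA, was at 267.0, 276.6 and 256.2 CPM in NC and 204.5, 190.5 and 191.4 CPM in shPRMT6 (log2 fold change -0.45, SE 0.0583, adjusted p = 0.00425). HNRNPR was at 190.7, 216.0 and 194.3 CPM in NC and 156.8, 159.4 and 153.2 CPM in shPRMT6 (log2 fold change -0.36, SE 0.0656, adjusted p = 0.0133). HNRNPUL1, a relative of the scaffold protein HNRNPU, was at 418.7, 436.9 and 415.1 CPM in NC and 311.2, 325.9 and 355.7 CPM in shPRMT6 (log2 fold change -0.36, SE 0.0648, adjusted p = 0.0128). In all 3 genes the groups did not overlap, and they fell to 73.3%, 78.1% and 78.1% of NC. HNRNPR lost its call without any one shPRMT6 library (highest adjusted p = 0.0574) and HNRNPUL1 without shPRMT6 replicate 1 or 2 (highest adjusted p = 0.0575).

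HNRNPK, which binds runs of C, was at 716.9, 685.3 and 663.7 CPM in NC and 581.3, 581.7 and 621.3 CPM in shPRMT6 (log2 fold change -0.21, SE 0.0549, adjusted p = 0.0418). HNRNPL, which binds CA repeats, was at 266.4, 249.1 and 251.7 CPM in NC and 223.9, 223.7 and 214.1 CPM in shPRMT6 (log2 fold change -0.21, SE 0.0541, adjusted p = 0.0387). Both were clear of overlap but close to the threshold. HNRNPK did not pass when any one of the 6 libraries was left out, and HNRNPL passed only without NC replicate 2. Both also missed the threshold by DESeq2 (adjusted p = 0.0783 and 0.0619), as did HNRNPA1 (0.0602). HNRNPLL, the paralog of HNRNPL, was at 43.4 ± 0.988 CPM in NC and 42.4 ± 4.11 in shPRMT6 (log2 fold change -0.03, 95% interval -0.24 to 0.18).

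HNRNPU, which binds chromatin and nuclear RNA, was at 446.9, 484.4 and 380.0 CPM in NC and 388.2, 359.6 and 359.0 CPM in shPRMT6 (log2 fold change -0.24, 95% interval -0.47 to -0.02, adjusted p = 0.13). Its groups overlapped through NC replicate 3, without which it passed (log2 fold change -0.34, adjusted p = 0.0416). HNRNPU shares 13.4% of its exon sequence with other genes, among them COX20 on the opposite strand. HNRNPUL2 was at 315.2 ± 11.2 CPM in NC and 285.7 ± 2.30 in shPRMT6 (log2 fold change -0.14, 95% interval -0.26 to -0.02, adjusted p = 0.104), and shares 42.8% of its exon sequence with the read-through gene HNRNPUL2-BSCL2. HNRNPC, which binds runs of U, was one of the few members above its NC level, at 403.2, 446.5 and 420.0 CPM in NC and 453.6, 450.9 and 463.1 CPM in shPRMT6 (log2 fold change 0.11, 95% interval -0.03 to 0.24, adjusted p = 0.235).

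PTBP1 represses exons through pyrimidine-rich tracts, and PTBP2 takes its place in developing neurons. PTBP1 was at 233.4, 135.5 and 144.9 CPM in NC and 133.9, 121.4 and 182.6 CPM in shPRMT6 (log2 fold change -0.23, 95% interval -0.82 to 0.36, adjusted p = 0.575). One library of each group stood apart, and without NC replicate 1 the value was 0.06. PTBP2 was scarce, at 3.22, 8.90 and 5.88 CPM in NC and 3.30, 2.31 and 3.34 CPM in shPRMT6. It had the lowest fold change of all members with the widest interval (log2 fold change -1.01, 95% interval -1.90 to -0.12, adjusted p = 0.114), and its groups overlapped through NC replicate 1, without which it passed (log2 fold change -1.31, adjusted p = 0.0318). Without NC replicate 2, the value was -0.61 (adjusted p = 0.262) and no longer past the study's threshold on size.

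**Figure D4:**
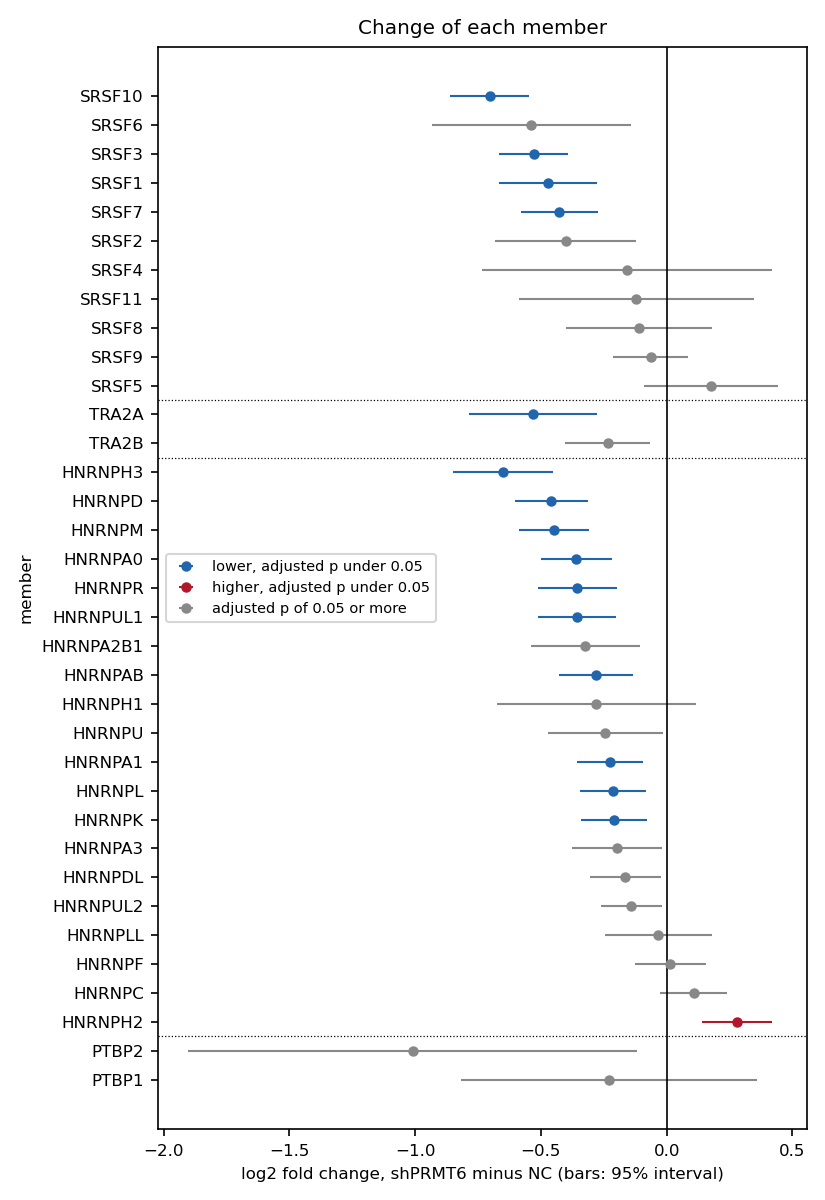
Log2 fold change of shPRMT6 minus NC with its 95% interval (x axis) for the 35 tested members (y axis, by family), coloured by the call at an adjusted p of 0.05. Blue intervals (15 lower members) end below 0, the red one (HNRNPH2) lies above 0, and 9 of the grey ones also end below 0.

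Summed over the 11 tested SRSF genes, RNA came to 1198, 1339 and 1206 CPM in NC and 1089, 961.8 and 993.0 CPM in shPRMT6, 81.3% of NC. Summed over the 20 HNRNP genes, it came to 6954, 7484 and 6799 CPM in NC and 6032, 5957 and 6138 CPM in shPRMT6, 85.4% of NC. In neither sum did the groups overlap. NC replicate 2, the deepest library, held the highest NC value in both sums and in 21 of the 35 members.

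Levels can be compared between genes only per length, as FPKM, which here rests on 1 length per gene. The length implied by counts, their library sum and FPKM was a median 1.18 times the joined exons of GENCODE 29 over the members. Most members had a factor near this median, but SRSF1 had an implied 6848 bases against 3340 bases of joined exons. SRSF10 (14055 against 10277 bases), PTBP2 (17637 against 12937) and TRA2B (15507 against 11769) also lay above it. A library total other than the sum of counts would also give a shared factor, and this was not tested. If the length used covers all joined exons, FPKM understates genes expressed as short transcripts. In NC libraries the tested members ran from 0.341 FPKM (PTBP2) to 152.6 FPKM (HNRNPA1), with a median of 20.9. HNRNPK (113.7), HNRNPA2B1 (97.5), HNRNPA3 (77.2) and HNRNPF (71.6) followed, and the highest SRSF gene was SRSF9, at 34.9 FPKM. Of the genes called lower, SRSF10 had the lowest level, at 6.19 FPKM in NC and 3.82 in shPRMT6.

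Ratios of paralogs within a library need no scaling between libraries. The log2 ratio of HNRNPD to HNRNPDL (FPKM) was 0.10, -0.06 and -0.04 in NC and -0.29, -0.33 and -0.27 in shPRMT6, a difference of -0.30. TRA2A to TRA2B differed by -0.29, HNRNPUL1 to HNRNPUL2 by -0.22 and HNRNPL to HNRNPLL by -0.18, all without overlap, so that the first gene of each pair lost more. The last of these was -0.11 without shPRMT6 replicate 1. HNRNPH1 to HNRNPH2 differed by -0.53, with NC replicate 3 apart from the rest, and by -0.30 without it. HNRNPA1 to HNRNPA2B1 differed by 0.09, and by 0.03 without NC replicate 2. PTBP1 to PTBP2 differed by 0.72 with overlapping groups (exact permutation p = 0.4, two-sided), and by 1.35 without NC replicate 1 and 0.23 without NC replicate 2. For the other 6 of the 7 pairs p was 0.1, the smallest that 3 against 3 libraries allow (0.117 adjusted over the pairs), so none could pass 0.05. Groups without overlap were common among single genes (19.9% of all genes lower and 20.3% higher). The share among other gene pairs was not taken, so the 6 pairs are not shown to stand out.

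**Figure D5:**
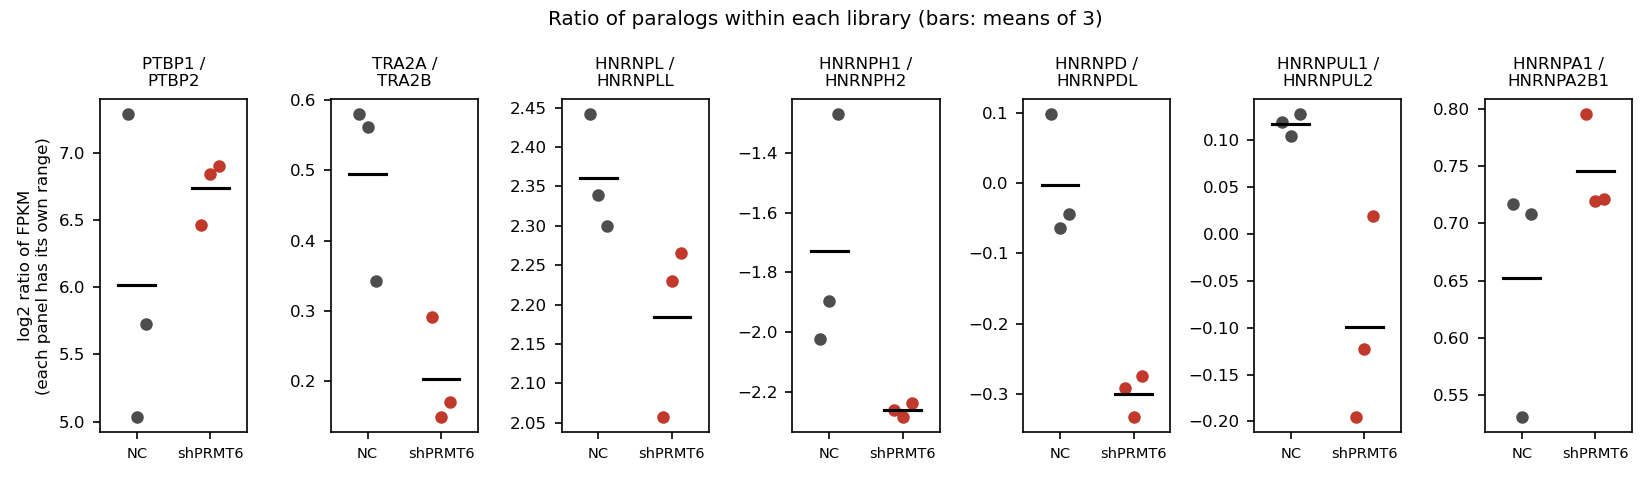
Log2 ratio of FPKM of 7 paralog pairs (y axis, own range in each panel) in NC (grey) and shPRMT6 (red) libraries, with bars for the means of 3. Groups are apart in 6 panels and overlap for PTBP1 to PTBP2. The share of other gene pairs with groups apart was not taken.

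GENCODE 29 lists an NMD transcript for 28 of the 36 members (77.8%), against 42.6% of 13389 tested protein-coding genes, and a transcript with a retained intron for 26 (72.2% against 56.2%). Members also have more transcripts listed, a median of 11 against 7. The gene counts add all transcripts of a gene, so productive and NMD forms were not separated here.

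Among 123 other splicing genes tested, from 9 lists, 18 were lower and 3 higher (14.6% and 2.44%), with a median log2 fold change of -0.08. The lower share lay between that of all genes (9.06%) and that of abundant genes (15.2%), and the higher share below both (9.51% and 15.2%). The lower count was 10, 10 and 11 without shPRMT6 replicates 1, 2 and 3. The share of all genes called lower was then 4.89%, 4.52% and 4.90%. Without NC replicate 2 the higher count was 7, when 8.84% of all genes were called higher. None of 9 kinases of SR proteins was called in either direction, although 1 passed in each direction without NC replicate 2. Of 3 import receptors of SR and hnRNP proteins, TNPO2 was lower, from 113.4 ± 4.45 to 69.1 ± 3.73 CPM (log2 fold change -0.71). In the 10 NMD factors, SMG8 was higher (log2 fold change 0.49) and no gene was lower, although 1 passed as lower without NC replicate 1.

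Other RNA-binding proteins counted with the hnRNPs gave 3 lower genes of 15, among them RBMX (-0.31). SR-related proteins gave 1 lower and 1 higher gene of 24: CLASRP (-0.42) and PPIG, a cyclophilin with an RS-rich tail, which rose from 50.9 ± 3.04 to 89.8 ± 8.79 CPM (0.82). Of 11 U1 and Sm proteins, 4 were lower, among them SNRPB (-0.65) and SNRPF (-0.53), while SNRPN, the tissue-restricted counterpart of SNRPB, was higher (0.31). Of 15 proteins that act at the branch point and the 3′ splice site, 3 were lower, among them SF1 (-0.49) and SF3A2 (-0.35). In the tri-snRNP and the PRPF19 complex, 3 of 16 were lower, among them CDC5L, from 82.0 ± 7.20 to 43.7 ± 1.26 CPM (-0.91), and BCAS2 (-0.67). Of 20 tested tissue-type regulators, 3 were lower, among them RBM10 (-0.44) and KHDRBS1 (-0.25). Named genes that passed without each library in turn were TNPO2 and SMG8 above, and PPIG, SNRPB, SNRPF, SF1, CDC5L, BCAS2 and RBM10. SF3A2 and KHDRBS1 passed only without NC replicate 2 and SNRPN only without NC replicate 1, while RBMX lost its call without shPRMT6 replicate 1 or 2 and CLASRP without NC replicate 1 or shPRMT6 replicate 1 or 3. The lower count was 1 without any one library other than NC replicate 2 for the branch point and 3′ splice site list and for the tissue-type list. It was 2 without shPRMT6 replicate 2 or 3 for the U1 and Sm proteins, and 1 without shPRMT6 replicate 1 or 2 for the RNA-binding proteins counted with the hnRNPs. Values in parentheses in this paragraph that stand alone are log2 fold changes of genes past an adjusted p of 0.05, the highest of which was 0.0414.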

How the data were processed

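Total RNA of 6 U87 cultures (3 NC, 3 shPRMT6) was measured by bulk RNA-seq. Per the labels, libraries were made with the NEBNext Ultra kit. The submitters' processing notes name HISAT2, HTSeq 0.13.5 and GRCh38, with no role or order. The annotation release, strand and read settings are not given in the sources used here. The deposited gene counts are raw counts, not normalised. The FPKM values were made by the authors from the same genes and list 0 as 1e-04. Groups were taken from the sample titles.

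Counts were filtered with filterByExpr, scaled by TMM (factors 0.992 to 1.01) and tested with edgeR 4.0.16 quasi-likelihood (R 4.3.3), with condition as the only term and Benjamini-Hochberg adjustment over all 18106 genes tested. CPM are TMM scaled. SE is the absolute log2 fold change over the root of the F statistic, and intervals are 95%. Alternatives were DESeq2 1.42.0, other scalings and filters, limma 3.58.1 on log2(FPKM + 1) or log2(FPKM + 0.1), pseudogene counts added to a member, and leaving out each library. Paralog ratios were tested with exact permutation (SciPy 1.17.1). Within a group, libraries differed by more than counting error (chi-square over its degrees of freedom 48.2 to 78.4), so none was a copy. Shared exon sequence is the share of 75-base stretches found in another gene's transcript (GENCODE 29, GRCh38) or the overlap with it. Protein features were planned and not analysed here.

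The fits were tested on simulated data. The setting was changed several times because recovery was low: most genes changed by 1 on the log2 scale were missed by edgeR, and the final setting used larger changes and a lower pass mark. It therefore says little about changes of the members' size, and a member that was not called is not shown to be unchanged. DESeq2 made more false calls than its nominal share there.

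All members are named. From each list of other splicing genes, up to 2 genes per direction with the smallest p past the threshold are named. Some genes that this rule or the marker list would name are not reported here. Members and lists were chosen with earlier results of these data known.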

Additional observations from a re-analysis of the deposited data

How the results depend on the processing

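All 16 members past the threshold kept their sign in all 16 alternative fits, and 7 of them passed without each library in turn (HNRNPA0, HNRNPD, HNRNPH3, HNRNPM, SRSF10, SRSF3 and SRSF7). The count of 15 lower members was 16 by DESeq2, which lost HNRNPA1, HNRNPK and HNRNPL and gained HNRNPA2B1, SRSF2, SRSF6 and PTBP2, and 12 with a filter of at least 1 count in any library, which lost the same 3 (adjusted p 0.0687, 0.0838 and 0.0799). It was 6 by limma on log2(FPKM + 1) without a filter (HNRNPH3 then had an adjusted p of 0.0648), 7 at an adjusted p under 0.01, 24 at an unadjusted p under 0.05, and 7 to 16 with a library left out. The share of all genes called lower moved as well. It was 6.46% by DESeq2, 4.20% with the filter of at least 1 count and 0.807% by limma without a filter. At an adjusted p under 0.01 it was 3.57%, and at an unadjusted p under 0.05 it was 16.29%. The 1 higher member became 0 by limma without a filter (0.964% of all genes higher) and at an adjusted p under 0.01 (3.72%). It became 0 to 2 with a library left out. For the other splicing genes, the 18 lower were 22 by DESeq2 and 10 to 22 with a library left out. The share of all genes called lower was 6.46% by DESeq2 and 4.52% to 8.10% with a library left out. The 3 higher were 5 by DESeq2 (7.08% of all genes) and 2 to 7 with a library left out (4.73% to 8.84%). Among members not called, the sign turned for HNRNPF without NC replicate 3 or shPRMT6 replicate 3, HNRNPLL without shPRMT6 replicate 3, PTBP1 without NC replicate 1, and SRSF11 and SRSF4 without NC replicate 2. With a library left out, log2 fold changes ran from -0.0281 to 0.0422 for HNRNPF, -0.1107 to 0.0297 for HNRNPLL, -0.4217 to 0.0558 for PTBP1, -0.2705 to 0.1230 for SRSF11 and -0.3712 to 0.1024 for SRSF4. The cause of these shifts was not tested, except that fits with a library left out hold fewer samples.

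Deviations of same-numbered libraries from their group means correlated at -0.014, -0.053 and -0.026 over all genes tested. No pairing by replicate number was thus seen, but values near 0 do not show that libraries were prepared apart. The sample titles do not say. With the replicate number as a block, 11 of the 16 called members passed (HNRNPL, HNRNPH2, HNRNPA1, HNRNPK and HNRNPAB did not). The count was 11 lower and 0 higher, when 5.015% of all genes tested were lower and 5.247% higher. Of the other splicing genes, 9 were then lower and 2 higher. In this fit PRMT6 had an adjusted p of 0.0803, and the genes called in all went from 3362 to 1858.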
